A study of Mus musculus with 7 samples.

Results

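The integrated stress response was followed through 7 genes, the transcription factor Atf4 and 6 genes known as its targets, Ddit3, Trib3, Chac1, Asns, Sesn2 and Ddit4. They were chosen by symbol for their place in this response, with earlier results of these data known. All 7 were found among the 29267 Ensembl genes of the tables. RNA was measured in 7 mouse libraries, each the only library of its group, so there were no replicates and the spread between cultures could not be estimated. The expected read counts summed to between 6108252 and 11496615 per library.

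The first 4 libraries came from OG2 mouse embryonic fibroblasts (MEFs), which carry a green fluorescent protein gene under an Oct4 promoter fragment (GOF18ΔPE) that is used to report pluripotent cells. All 4 had been infected with retroviruses for Oct4, Sox2, Klf4 and c-Myc, were kept in either conventional mES medium or 5C medium, and were sorted by fluorescence into Oct4GFP+ and Oct4GFP- cells. They are named by medium and reporter, as in mES-Oct4GFP+ or 5C-Oct4GFP-, and the labels put them at passage 0. The mES medium contains serum, whereas 5C medium is serum-free. The latter is DMEM/F12 with N2 supplement, bFGF, β-mercaptoethanol, vitamin C and LIF. Vitamin C was, according to the study, part of both media. The study's component list gives non-essential amino acids and GlutaMax for mES, naive and primed medium, and neither for 5C medium. The 5C-Oct4GFP+ (naive) and 5C-Oct4GFP+ (primed) cells were 5C-Oct4GFP+ cells carried on in naive medium (LIF with 2 kinase inhibitors) or in primed medium, and R1 ESCs-primed were embryonic stem cells of the R1 line brought to the primed state on feeder fibroblasts. The labels give these last 3 groups 20 passages. A figure legend of the study describes naive and primed cells kept in those media for days and then for 20 more passages, and takes these for RNA-Seq. Another legend on the RNA-Seq gives days only. The time the naive and primed cells spent in their media is therefore uncertain. That time cannot be told apart from the medium when they are compared with the sorted cells.

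When cells lack amino acids or heme, accumulate unfolded protein or sense viral RNA, 1 of 4 kinases phosphorylates the translation factor eIF2α. General translation then drops while translation of Atf4 mRNA goes up, because short open reading frames ahead of its coding region stop holding ribosomes back. ATF4 is a bZIP protein that binds DNA with C/EBP partners and switches on amino acid synthesis and transport, tRNA charging and, when stress persists, inhibitors and death-promoting factors. Since much of the control of ATF4 is translational, its mRNA is not a measure of its protein, and no protein was measured in these libraries.

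ATF4 and C/EBP proteins are known to bind composite elements of the form TGATGNAA or TGNNGCAA, and some sequences fit both patterns. Both strands of RefSeq windows on GRCm38.p6, running from 250 bases before to 50 bases after each gene start, were searched, and a window was found for all 7 genes. The most extended group of matches was in Chac1. The following 120 bases on the plus strand, at chr2:119350992-119351111, begin 250 bases before the Chac1 start, lie outside annotated exons and hold 3 matches, shown in capitals.
Chac1: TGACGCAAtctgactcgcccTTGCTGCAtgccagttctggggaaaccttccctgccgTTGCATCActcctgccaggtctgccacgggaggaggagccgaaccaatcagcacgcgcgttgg

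Matches also stood in 3 other members, each printed in 30 bases on the strand of the gene with the match in capitals. In Trib3, a match began 33 bases before the RefSeq start (chr2:152344075-152344104, minus strand). Another began at base 15 counted from that start, in 30 bases (chr2:152344028-152344057) that overlap an annotated exon. It is labelled below as within the exon only because those 30 bases overlap it. The match itself lies before the annotated Trib3 gene, which on the minus strand begins at chr2:152344032. Whether the match lies in an exon of another gene was not checked. The Asns match began 23 bases before the RefSeq start (chr6:7693214-7693243, minus strand) in a stretch that overlaps an annotated exon. The Sesn2 match began 218 bases before the start (chr4:132510656-132510685, minus strand).
Trib3: cgggtcacagaTGGTGCAAtcccgggccgc
Trib3, within the exon: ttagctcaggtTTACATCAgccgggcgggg
Asns: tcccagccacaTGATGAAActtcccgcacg
Sesn2: catgcaaaagtTTGCAGCAtctgtgcgagg

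TGATGNAA was in the windows of 3 of the 7 members (Chac1, Trib3 and Asns) and in 3.97% of all 32851 windows. TGNNGCAA was in 3 of 7 (Chac1, Trib3 and Sesn2) and in 11.4% of all windows. The palindrome TGACGTCA and the ER stress element were in 0 of 7 member windows, and in 1.79% and 0.119% of all windows. The windows of Atf4, Ddit3 and Ddit4 held none of these letters. The motifs were chosen after the windows had been seen, so these shares are a description only. A match is a run of letters and was not tested for binding here.

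Levels are given in TPM, the abundance of a gene's transcripts per length, scaled so that each library has the same total. Atf4 (ENSMUSG00000042406, chr15:80255184-80257541, plus strand, mm10) was at the 97.9th to 98.9th percentile of all genes in the 7 libraries and varied least of the 7 genes. Its level was 260 TPM in Oct4GFP+ and 362 TPM in Oct4GFP- cells from mES medium, 417 TPM and 387 TPM in those from 5C medium, 303 TPM in naive, 429 TPM in primed and 278 TPM in R1 ESCs-primed cells. Its highest level was 1.65 times its lowest. The primed and 5C-Oct4GFP+ libraries stood at the top and differed by less than counting error, as did R1 ESCs-primed and mES-Oct4GFP+ at the bottom. Between 1431 and 4452 reads lie behind each of these values.

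Ddit3 (ENSMUSG00000025408, chr10:127290774-127296288, plus strand) encodes CHOP, a bZIP factor that promotes cell death under lasting stress. It was measured at 18.7 TPM in Oct4GFP+ and 31.9 TPM in Oct4GFP- cells from mES medium, 30.5 TPM and 24.0 TPM in those from 5C medium, 18.9 TPM in naive, 20.5 TPM in primed and 17.0 TPM in R1 ESCs-primed cells. No 2 neighbours in this order differed beyond counting error, which was wide because only 45 to 144 reads fell on the gene. Its last 68 bases (chr10:127296221-127296288) overlap the methionyl-tRNA synthetase gene Mars1, which lies on the opposite strand and reached 303 TPM. The sources used here do not say whether strand entered the counting, so reads from that overlap cannot be assigned with certainty.

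Trib3 (ENSMUSG00000032715, chr2:152337422-152344032, minus strand) encodes a pseudokinase that is induced by ATF4 and CHOP and restrains both. It was at 20.9 TPM in Oct4GFP+ and 5.22 TPM in Oct4GFP- cells from mES medium, 38.7 TPM and 13.3 TPM in those from 5C medium, 25.3 TPM in naive, 35.6 TPM in primed and 13.4 TPM in R1 ESCs-primed cells. The 2 highest libraries, 5C-Oct4GFP+ and primed, did not differ beyond counting error, and mES-Oct4GFP- was the lowest. The 5C-Oct4GFP- level rests on 81 reads and on an effective length of 1423 bases, against 1867 to 1953 bases in the other 6 libraries.

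Chac1 (ENSMUSG00000027313, chr2:119351229-119354381, plus strand) encodes an enzyme that degrades glutathione and is a late target of the ATF4 and CHOP branch. It was at 4.23 TPM in Oct4GFP+ and 4.35 TPM in Oct4GFP- cells from mES medium, 26.2 TPM and 5.99 TPM in those from 5C medium, 4.60 TPM in naive, 19.3 TPM in primed and 7.81 TPM in R1 ESCs-primed cells. The levels thus fell into 2 high libraries, 5C-Oct4GFP+ and primed, with 234 and 190 reads, and 5 low ones with 22 to 47 reads. The 5 low libraries were each within counting error of the next in order.

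Asns (ENSMUSG00000029752, chr6:7675169-7693254, minus strand) encodes asparagine synthetase, the enzyme that makes asparagine from aspartate and glutamine. It was at 790 TPM in Oct4GFP+ and 86.9 TPM in Oct4GFP- cells from mES medium, 154 TPM and 108 TPM in those from 5C medium, 657 TPM in naive, 215 TPM in primed and 146 TPM in R1 ESCs-primed cells. Its levels in mES-Oct4GFP+ and naive cells were far above those in the other 5 libraries, and the range of 9.09 times was the widest of the 7 genes. Within a library, Asns was at 3.03 times the TPM of Atf4 in mES-Oct4GFP+ and 2.17 times in naive cells. In the remaining libraries that quotient was 0.240 to 0.524.

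Sesn2 (ENSMUSG00000028893, chr4:132492032-132510501, minus strand) encodes a leucine sensor that holds back mTORC1 and is also a p53 target. It was at 97.3 TPM in Oct4GFP+ and 40.2 TPM in Oct4GFP- cells from mES medium, 105 TPM and 44.1 TPM in those from 5C medium, 96.4 TPM in naive, 70.8 TPM in primed and 72.4 TPM in R1 ESCs-primed cells. Both Oct4GFP- libraries were the lowest, and they did not differ from each other beyond counting error. A gene of low level on the same strand, Gm12981 (at most 1.28 TPM), overlaps it.

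Ddit4 (ENSMUSG00000020108, chr10:59949669-59951834, minus strand) encodes REDD1, another mTORC1 inhibitor, which is induced by hypoxia and glucocorticoids as well as by ATF4. It was at 88.9 TPM in Oct4GFP+ and 130 TPM in Oct4GFP- cells from mES medium, 161 TPM and 160 TPM in those from 5C medium, 56.4 TPM in naive, 136 TPM in primed and 101 TPM in R1 ESCs-primed cells. The libraries from 5C medium shared the top position and the naive library was the lowest.

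**Figure D1:**
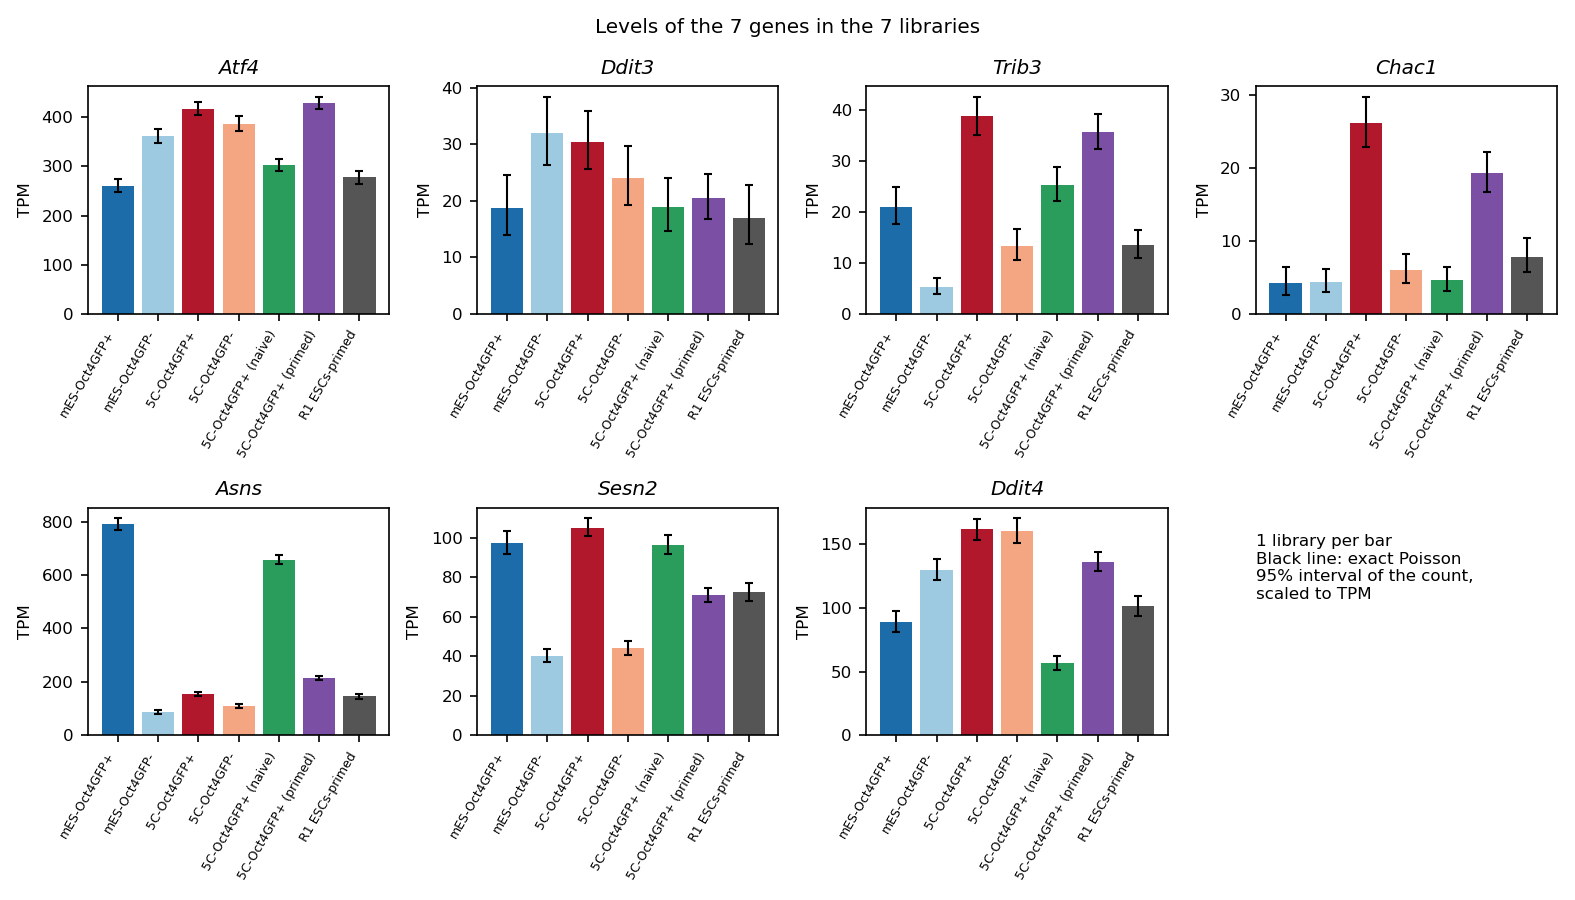
Level of each of the 7 genes in TPM (vertical axis, from 0, with its own scale per gene) in the 7 libraries (bars, 1 library each), with exact Poisson 95% intervals of the read count as black lines. Chac1 is high in 5C-Oct4GFP+ (26.2 TPM) and primed (19.3 TPM) cells, and Asns in mES-Oct4GFP+ (790 TPM) and naive (657 TPM) cells.

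Across the genes, 5C-Oct4GFP+ was the highest library for 4 of 7 (Trib3, Chac1, Sesn2 and Ddit4) and within the top 3 for 6 of 7. The mean rank of the 7 genes was 1.71 in 5C-Oct4GFP+, 2.86 in primed, and between 4.29 and 5.14 in the other 5 libraries. The genes did not move as 1 block. Over the 7 libraries, which is a small number and gives a description only, pairwise Pearson correlations of log2(TPM + 1) reached 0.80 for Trib3 with Sesn2, and were as low as -0.78 for Asns with Ddit4.

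The media were compared first in the cells that had switched on the reporter. In 5C-Oct4GFP+ compared with mES-Oct4GFP+ cells, 6 of the 7 genes were higher beyond counting error and Asns was lower. A gene was tested if its TPM reached 1 in at least 1 of the libraries compared and called if log2(TPM + 1) differed by 2-fold or more, and ratios carry exact Clopper-Pearson 95% intervals of the read counts, which cover counting error only. Chac1 was called higher, at 6.20 times (4.0 to 10.1), whereas 13.7% of the 15196 genes tested were called higher. The next largest ratios were 1.85 (1.52 to 2.26) for Trib3, 1.82 (1.64 to 2.02) for Ddit4, 1.63 (1.18 to 2.28) for Ddit3 and 1.60 (1.51 to 1.70) for Atf4. Sesn2 was nearly level, at 1.08 (1.0 to 1.16). Asns was called lower, at 0.195 times (0.184 to 0.207), and 13.5% of genes were called lower. The median log2 difference was 0.68 over the 7 genes and -0.06 over all genes tested. As 1 of 7 called in each direction is close to these shares, the counts of calls do not set the group apart from other genes.

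In cells without the reporter, the ratios between the media were closer to 1 for 5 of the 7 genes, a difference that was not tested across cultures. In 5C-Oct4GFP- compared with mES-Oct4GFP- cells, Trib3 was called higher at 2.55 times (1.75 to 3.76), where 9.68% of the 15859 genes tested were called higher. That call rests on the shorter effective length noted above: in counts scaled to the library total alone (CPM), 9.70 against 5.10, the ratio was 1.90 (1.31 to 2.80) and was not called. Asns was at 1.24 times (1.12 to 1.38) and Ddit4 at 1.24 times (1.13 to 1.35). Atf4 was at 1.07 times (1.01 to 1.13). The intervals of Sesn2 (0.978 to 1.23), Chac1 (0.836 to 2.29) and Ddit3 (0.561 to 1.01) included 1. None of the 7 was called lower, against 10.1% of all genes. Asns was therefore below 1 in Oct4GFP+ and above 1 in Oct4GFP- cells under the same change of medium, and with 1 library per group the difference between these ratios was not tested across cultures. Markers of other cell types also differed between these Oct4GFP- libraries. In 5C medium 6 of 6 endoderm and trophoblast markers were called lower, with sums of 8.51 against 78.1 TPM. Of 10 fibroblast markers 6 were called lower and 1 higher, with sums of 255 against 489 TPM. The higher one was Thy1, at 53.3 against 8.73 TPM, and 3 of the 10 had a positive difference. The part of these markers in the ratios was not tested.

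**Figure D2:**
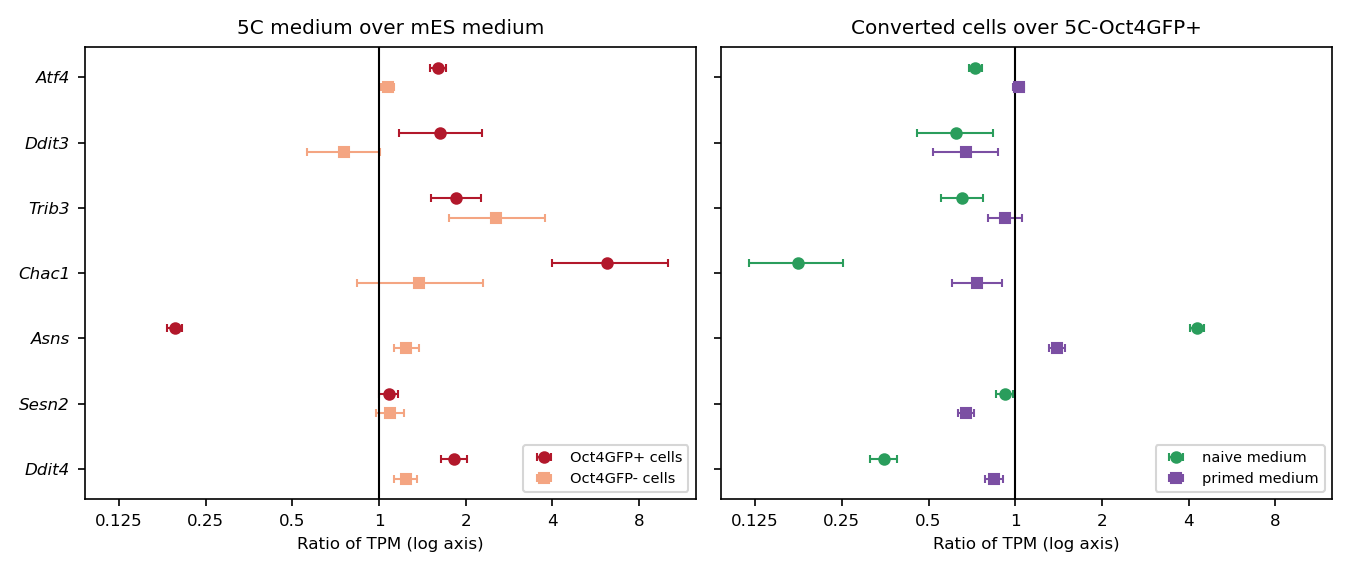
Ratio of TPM (horizontal log axis) for each gene, with Clopper-Pearson 95% intervals of the read counts, for 5C over mES medium in Oct4GFP+ and Oct4GFP- cells (left) and for naive or primed cells over 5C-Oct4GFP+ cells (right). Chac1 at 6.20 and Asns at 0.195 are the points farthest from 1 on the left, and they are on the opposite sides for the naive cells on the right, at 0.176 and 4.26.

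Oct4GFP+ and Oct4GFP- cells of 1 medium differ in cell type as well as in reporter. The 10 fibroblast markers (Col1a1, Col3a1, Thy1, Dcn and others) summed to 489 TPM in mES-Oct4GFP- and 255 TPM in 5C-Oct4GFP-, against 15.9 TPM and 13.6 TPM in the matching Oct4GFP+ libraries, where 5 and 4 of the 10 reached 1 TPM and Twist2 was at 0 and 0.14 TPM. The naive markers Zfp42, Esrrb and Dppa3 were at 71.3 to 494 TPM in the Oct4GFP+ libraries and at 0.37 to 15.3 TPM in the Oct4GFP- libraries. Of the 8 naive markers 7 were called higher and 1 lower in the Oct4GFP+ cells of either medium. The lower one was Klf4, which was also given by retrovirus, at 139 against 1613 TPM in mES medium and 522 against 1512 TPM in 5C medium, and with it the sums of the 8 markers were close, at 1916 against 1686 TPM and 1508 against 1606 TPM. The part of this difference in the results was not tested, and in such bulk samples fewer cells of a type and less RNA per cell cannot be told apart.

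In mES medium, the Oct4GFP+ cells had 9.09 times (8.41 to 9.83) the Asns level of the Oct4GFP- cells, 4.01 times (2.84 to 5.75) the Trib3 level and 2.42 times (2.19 to 2.67) the Sesn2 level. These 3 were called higher, where 17.9% of all genes were. Atf4 at 0.720 (0.675 to 0.768), Ddit4 at 0.686 (0.613 to 0.767) and Ddit3 at 0.586 (0.413 to 0.821) were lower beyond counting error but not called, where 28.8% of all genes were called lower. The interval of Chac1 included 1, at 0.972 (0.534 to 1.74).

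In 5C medium, Trib3 and Sesn2 were again higher in the Oct4GFP+ cells, at 2.90 times (2.28 to 3.72) and 2.38 times (2.18 to 2.61). The Trib3 ratio depends on the shorter effective length in 5C-Oct4GFP- cells, and in CPM it was 4.25 (3.35 to 5.46). Chac1 joined Trib3 and Sesn2 at 4.38 times (3.12 to 6.28), so that 3 of 7 were called higher, where 8.45% of all genes were. Asns was at 1.42 times (1.31 to 1.55) and Atf4 at 1.08 times (1.03 to 1.13). Ddit3, at 1.27 (0.962 to 1.68), and Ddit4, at 1.01 (0.931 to 1.09), had intervals that included 1. None of the 7 was called lower, and 22.6% of all genes were. The 4 sorted libraries enter both the comparisons between media and these, so the counts are not independent of each other.

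Transfer of 5C-Oct4GFP+ cells to naive medium was associated with lower TPM of 6 genes and a higher TPM of Asns. Chac1 was at 0.176 times (0.119 to 0.252) and Ddit4 at 0.349 times (0.313 to 0.389) of the 5C-Oct4GFP+ level, and both were called lower, where 17.5% of the 14863 genes tested were. Ddit3 was at 0.620 (0.457 to 0.834), Trib3 at 0.654 (0.554 to 0.771) and Atf4 at 0.726 (0.689 to 0.764). Sesn2, at 0.918 (0.858 to 0.981), was the closest to 1, and in CPM its ratio of 0.963 (0.901 to 1.03) had an interval that included 1. Asns was called higher at 4.26 times (4.03 to 4.52), where 10% of genes were. The median log2 difference of the 7 was -0.59, against -0.10 over all genes tested.

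After transfer to primed medium, none of the 7 genes was called in either direction, against 13.7% of genes called higher and 16.1% called lower. Asns was at 1.40 times (1.31 to 1.49) the 5C-Oct4GFP+ level. Ddit3 and Sesn2 were both at 0.674 times, with intervals of 0.520 to 0.871 and 0.631 to 0.721. Chac1 was at 0.737 (0.605 to 0.896) and Ddit4 at 0.843 (0.783 to 0.907). Atf4, at 1.03 (0.985 to 1.07), and Trib3, at 0.920 (0.804 to 1.05), had intervals that included 1. The fibroblast markers summed to 84.7 TPM in primed and 13.6 TPM in 5C-Oct4GFP+ cells, and their part in these ratios was not tested.

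The converted cells were then compared with the pluripotent cells of the matching kind. Naive cells were close to mES-Oct4GFP+ cells, with none of the 7 genes called, where 2.49% of genes were called higher and 6.27% lower. Atf4 was at 1.16 times (1.09 to 1.24), Asns at 0.832 (0.800 to 0.864) and Ddit4 at 0.634 (0.555 to 0.724) of the mES-Oct4GFP+ level. The intervals of Ddit3, Trib3, Chac1 and Sesn2 included 1, and that of Chac1 was as wide as 0.618 to 1.95.

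Primed cells, in contrast, had higher levels than R1 ESCs-primed for 5 of the 7 genes. Trib3 at 2.65 times (2.13 to 3.32) and Chac1 at 2.47 times (1.79 to 3.48) were called higher, where only 2.3% of the 14600 genes tested were. Atf4 was at 1.54 times (1.46 to 1.63), Asns at 1.48 times (1.38 to 1.59) and Ddit4 at 1.34 times (1.22 to 1.48). Ddit3, at 1.21 (0.845 to 1.75), and Sesn2, at 0.978 (0.901 to 1.06), had intervals that included 1. None was called lower, against 5.09% of genes. The median log2 difference was 0.56, against -0.03 for all genes tested. The fibroblast markers summed to 84.7 TPM in primed and 235 TPM in R1 ESCs-primed cells, and all 10 reached 1 TPM in both. The study describes primed R1 cells as started on feeder cells and then maintained on plates coated with serum. Which cells gave these transcripts, and their part in the ratios, was not tested.

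**Figure D3:**
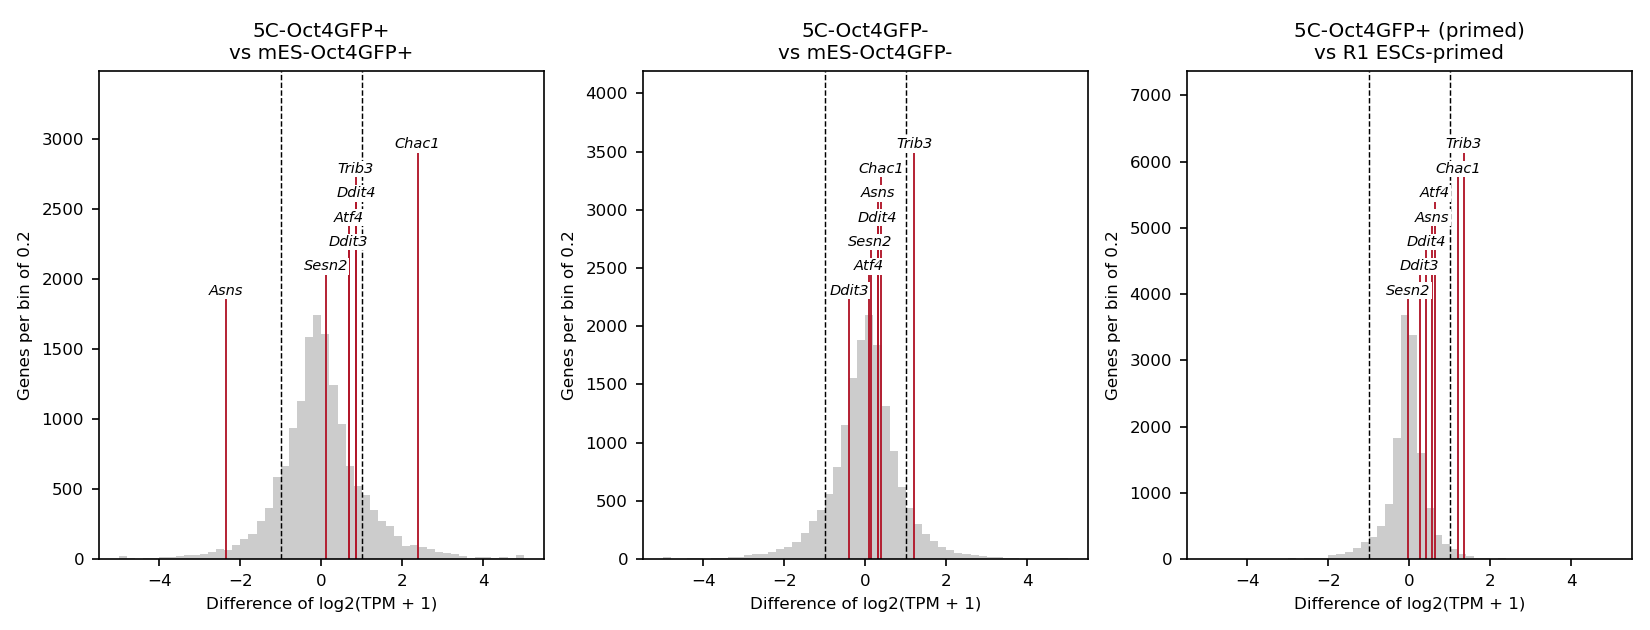
Number of genes (vertical axis) per bin of the difference of log2(TPM + 1) (horizontal axis, values beyond 5 in the outermost bins) among all genes tested in 3 comparisons, with the 7 genes as red lines whose heights only separate the names, and 2-fold as dashed lines. In the primed comparison (right) Trib3 and Chac1 lie beyond the right dashed line, past which 2.3% of genes fall.

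The other genes of the response were described from 10 lists holding 102 genes, also chosen with earlier results of these data known. Their counts stand against 13.7% of all genes called higher and 13.5% lower between the media in Oct4GFP+ cells, and 9.68% and 10.1% in Oct4GFP- cells. Upstream, the 4 eIF2α kinases were called in neither comparison of media. In 5C-Oct4GFP+ cells they stood at 27.1 TPM (Eif2ak1, the heme-regulated kinase), 13.1 TPM (Eif2ak2, PKR), 18.5 TPM (Eif2ak3, PERK) and 25.4 TPM (Eif2ak4, GCN2, the amino acid sensor). In mES-Oct4GFP+ cells the same kinases were at 35.1, 11.9, 15.6 and 21.6 TPM. Of the 14 genes of kinases, phosphatase subunits and eIF2 or eIF2B, 1 was called higher and 2 lower in 5C-Oct4GFP+ compared with mES-Oct4GFP+ cells, near the shares over all genes. The higher one was Ppp1r15a (GADD34), the ATF4-induced phosphatase subunit that reverses eIF2α phosphorylation, at 122 against 52.8 TPM, a ratio of 2.31 (2.0 to 2.67). The lower ones were the eIF2B subunits Eif2b4, at 0.391 times (0.345 to 0.442), and Eif2b5, at 0.454 times (0.427 to 0.483). In the Oct4GFP- cells none of the 14 was called, and Ppp1r15a was at 147 against 258 TPM, a ratio of 0.568 (0.528 to 0.612).

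Among the bZIP partners and related factors, 4 of 8 tested were called higher in 5C-Oct4GFP+ compared with mES-Oct4GFP+ cells and 1 was called lower. Atf3, an immediate stress factor, was at 35.4 against 1.26 TPM, a ratio of 28.1 (14.1 to 65.5) that rests on 8 reads in the mES library. Cebpb, an ATF4 partner, was at 5.91 times (3.59 to 10.4) and the AP-1 repressor Jdp2 at 4.71 times (3.02 to 7.70). In Oct4GFP- cells 1 of 9 was called higher and 2 lower, among the latter Nupr1 at 0.125 times (0.108 to 0.144) and Atf3 at 0.425 times (0.389 to 0.465). The median log2 difference of the list was 1.27 in Oct4GFP+ and -0.12 in Oct4GFP- cells.

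The amino acid transporters leaned the same way in both kinds of cells. In 5C-Oct4GFP+ compared with mES-Oct4GFP+ cells, 8 of 9 had a positive difference and 2 were called higher. These were Slc7a3, a cationic amino acid transporter, at 325 against 43.9 TPM, or 7.40 times (6.60 to 8.32), and Slc38a2 (SNAT2), which imports neutral amino acids, at 3.15 times (2.96 to 3.35). The other cationic transporter Slc7a1 was called lower, at 0.460 times (0.422 to 0.502). In the Oct4GFP- cells 9 of 9 were positive and 4 were called higher, led by the glycine transporter Slc6a9 at 3.52 times (2.60 to 4.83), the cystine exchanger Slc7a11 at 2.66 times (2.33 to 3.05) and the leucine transporter Slc7a5 at 2.54 times (2.32 to 2.79). The median of the list was 0.89 in Oct4GFP+ and 0.90 in Oct4GFP- cells, against -0.06 and 0.03 over all genes tested.

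The enzymes of serine, proline and one-carbon synthesis had medians of 0.50 and 0.77 in these comparisons. None of 11 was called in Oct4GFP+ cells, where 7 of 11 were positive and 4 were negative, from Aldh18a1, the first enzyme of proline synthesis, at 1.98 times (1.73 to 2.27) to the transsulfuration enzyme Cbs at 0.567 times (0.502 to 0.640). In Oct4GFP- cells 2 of 11 were called higher, the mitochondrial folate enzyme Mthfd2 at 2.88 times (2.45 to 3.39) and Cbs at 3.10 times (2.23 to 4.38).

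The tRNA synthetases, which charge tRNAs with amino acids and include many ATF4 targets, moved little. None of 13 was called in either comparison of media, with 10 of 13 positive in Oct4GFP+ and 13 of 13 positive in Oct4GFP- cells. The largest ratio was 1.59 (1.48 to 1.71) for Sars in Oct4GFP+ and 1.80 (1.66 to 1.94) for Aars in Oct4GFP- cells. The medians were 0.28 and 0.35.

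The secreted and other stress effectors again differed between the kinds of cells. In Oct4GFP+ cells 4 of 9 were called higher with 5C medium, among them Ndrg1 at 8.63 times (7.41 to 10.1), the secreted glycoprotein Stc2 at 6.08 times (4.17 to 9.17) and the growth arrest gene Gadd45a at 4.06 times (3.18 to 5.24). In Oct4GFP- cells none of 9 was called higher and 2 were called lower, the ER oxidase Ero1l at 0.271 times (0.250 to 0.292) and Vldlr at 0.345 times (0.274 to 0.431). Ero1l also stands in the list of HIF1 targets below, so its call enters both lists. Fgf21, a hormone induced by ATF4 in liver, was at most 0.82 TPM in all 7 libraries.

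The other arms of the unfolded protein response leaned lower in 5C medium. Of 14 ATF6 and IRE1-XBP1 genes and ER chaperones, none was called higher, and 4 of 14 in Oct4GFP+ and 2 of 14 in Oct4GFP- cells had a positive difference. Ern1 (IRE1α) was called lower in Oct4GFP+ cells, at 0.214 times (0.155 to 0.293), from 7.61 to 1.63 TPM. The chaperone Hspa5 (BiP), a common readout of ER stress, was at 438 TPM in mES-Oct4GFP+ and 486 TPM in 5C-Oct4GFP+ cells, and at 1019 TPM in mES-Oct4GFP- and 697 TPM in 5C-Oct4GFP- cells.

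Some members answer to other pathways, and the genes of these pathways were listed for that reason. Of the HIF1 targets, which respond to low oxygen as Ddit4 does, 6 of 8 tested were called higher in 5C-Oct4GFP+ compared with mES-Oct4GFP+ cells, led by Egln3 at 8.23 times (6.05 to 11.4) and Pdk1 at 8.13 times (7.12 to 9.33). In Oct4GFP- cells 8 of 9 were called lower, with Egln3 at 0.142 times (0.133 to 0.150), while Ddit4 itself was at 1.24 times. Of the p53 targets, among which Sesn2 is counted, 1 of 8 was called higher in Oct4GFP+ cells (Perp, at 5.95 times, 4.68 to 7.68) and 1 was called lower (Cdkn1a, at 0.455 times, 0.423 to 0.489), near the shares over all genes. In Oct4GFP- cells 3 of 8 were called lower, and Cdkn1a was at 0.309 times (0.293 to 0.326). The part of either pathway in the levels of Ddit4 and Sesn2 was not tested.

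Paralogues of the members had their own patterns. Trib1 was at 7.32 times (6.01 to 8.99) in 5C-Oct4GFP+ compared with mES-Oct4GFP+ cells, and Sesn1 at 0.340 times (0.291 to 0.396), where Sesn2 was at 1.08 times. Chac2, the constitutive relative of Chac1, was between 1.85 and 6.08 TPM in the 7 libraries.

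In naive compared with 5C-Oct4GFP+ cells, the lists that had been higher in 5C-Oct4GFP+ cells had negative medians. These 2 comparisons share the 5C-Oct4GFP+ library, so a high value there enters both. Over all genes 17.5% were called lower and 10% higher in naive compared with 5C-Oct4GFP+ cells. The bZIP list had a median log2 difference of -1.45 with 5 of 8 tested called lower, among them Atf3 at 0.0514 times (0.0255 to 0.0931). For the stress effectors it was -1.08 with 5 of 9 called lower, and for the transporters -0.66 with 2 of 9 called lower and 1 higher. Slc7a3 was at 0.183 times (0.167 to 0.200), while Slc7a1 was called higher at 2.31 times (2.14 to 2.51), as Asns was.

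In primed compared with 5C-Oct4GFP+ cells, the transporters (median 0.02) and the enzymes of serine, proline and one-carbon synthesis (median 0.02) were centred near 0. Individual enzymes diverged, with Phgdh, the first enzyme of serine synthesis, called higher at 2.16 times (2.02 to 2.31) and the cysteine-producing enzyme Cth called lower at 0.0711 times (0.0601 to 0.0837). Of the tRNA synthetases 12 of 13 were positive and none was called, against 13.7% of all genes called higher and 16.1% lower. The stress effectors had 4 of 9 called lower and 1 higher (median -0.29). The bZIP factors had 3 of 9 called lower and 1 higher (median -0.24), and the HIF1 targets 4 of 9 lower and 1 higher (median -0.77). The ER chaperone list leaned higher, with 11 of 14 positive (median 0.33). As above, a high value in the 5C-Oct4GFP+ library enters these differences too. The secreted factor Gdf15 was at 0.61 TPM in primed and 25.5 TPM in 5C-Oct4GFP+ cells.

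Between primed and R1 ESCs-primed cells no gene was called higher in any of the 10 lists, where 2.3% of all genes were called higher and 5.09% lower. Batf3, at 0.196 times (0.0556 to 0.566) on 5 against 15 reads, and Cth, at 0.442 times (0.358 to 0.546), were called lower. With so small a share over all genes, the absence of higher calls does not set the lists apart. The list medians in this comparison ran from -0.41 for p53 targets to 0.30 for the stress effectors. Between naive and mES-Oct4GFP+ cells no gene was called higher either, and 4 were called lower in these lists, Ern1 at 0.343 times (0.255 to 0.458) and 3 HIF1 targets. Over all genes 2.49% were called higher and 6.27% lower in that comparison.

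**Figure D4:**
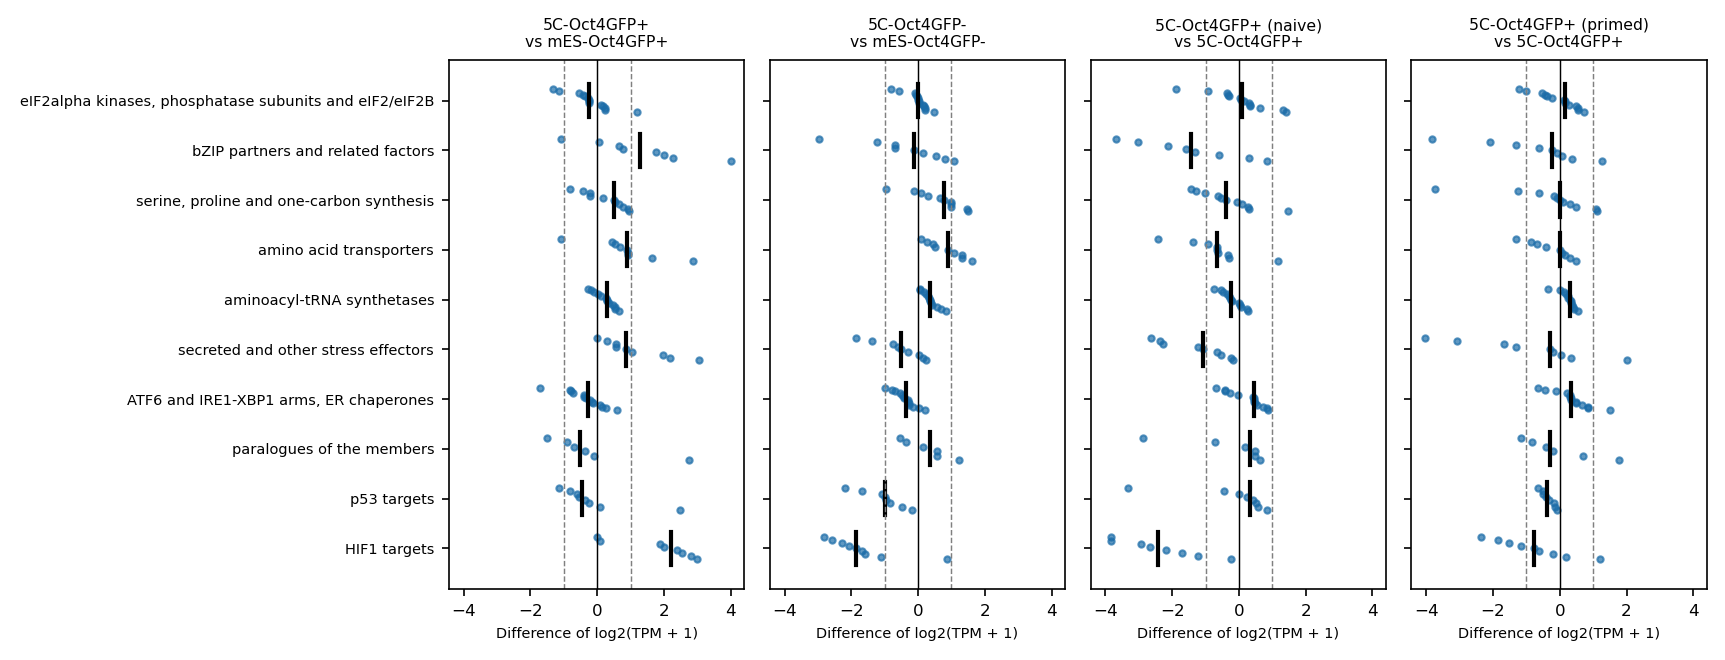
Difference of log2(TPM + 1) (horizontal axis) for each gene tested (points) in the 10 lists (rows), with the list median as a black bar and 2-fold as dashed lines, in 4 comparisons. Transporters lie mostly right of 0 in both comparisons of media (medians 0.89 and 0.90), while the bZIP factors have a median of 1.27 in the Oct4GFP+ and -0.12 in the Oct4GFP- comparison.

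Genes with patterns like those of the members over the 7 libraries were sought by Pearson correlation of log2(TPM + 1) among 11804 genes that reached 10 TPM in any library. The 5 most like Atf4 were Zfp93, Trit1, Kdf1, Mfsd13a and Miip, with r from 0.963 to 0.906. The 5 most like the mean of the 7 members were Nol4l, Gtf2ird1, Ccdc92, Brap and Ndufa1, with r from 0.976 to 0.931. Nol4l was at 192 TPM in 5C-Oct4GFP+, 130 TPM in primed and 51.0 to 84.1 TPM in the other 5 libraries. With 7 points and this many genes, high values of r arise readily, and they are given as a description.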

How the data were processed

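RNA was sequenced by the authors in 7 libraries from TruSeq v2 kits on a MiSeq, and the submitters' processing notes name Bowtie, RSEM and the build mm10, with no versions. Expected counts, as deposited, estimate the reads per gene and are not normalized. The deposited TPM values are those counts per effective length scaled to 1 sum in each library, and the deposited FPKM values are scaled by the authors to mapped fragments. The members' expected counts were whole numbers in all libraries. Groups were taken from the labels, with 1 library each, and 8 pairs of libraries were compared without any test across libraries.

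Differences were taken on log2(TPM + 1), a scale that understates changes of low genes, and called at 2-fold where TPM reached 1 in at least 1 of the compared libraries. For ratios of deposited TPM, expected counts were rounded and gave exact 95% intervals (Clopper-Pearson). These cover counting error only. With summed counts of 6108252 to 11496615, 1 count at the median gene length stood for 0.0795 to 0.152 TPM.

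Named were all 7 members, up to 3 genes per list and comparison with the largest absolute difference, and the 5 genes most like Atf4 and the mean of the members. Kinases, Hspa5, Fgf21 and Chac2 lie outside that rule and were chosen after their values were seen. Members and lists were chosen with earlier results of these data known, and the motifs after the windows had been seen. Gene positions are from GENCODE M21 (mm10), sequences and names from RefSeq GRCm38.p6. Alternatives were a pseudocount of 0.1, a minimum TPM of 5 or none, a 1.5-fold call, FPKM, CPM (counts over the library's sum of counts) and median-ratio rescaling. The scripts were tested on simulated data. Versions were matplotlib 3.10.9, scipy 1.17.1, pandas 2.3.3, numpy 2.4.6 and Python 3.11.15.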

Additional observations from a re-analysis of the deposited data

Results flagged for a closer look

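Asns went in opposite directions under the same change of medium, each beyond counting error. Its ratio was 0.195 for 5C-Oct4GFP+ over mES-Oct4GFP+ cells and 1.24 for 5C-Oct4GFP- over mES-Oct4GFP- cells. Atf4 did so between Oct4GFP+ and Oct4GFP- cells, with a ratio of 0.720 in mES medium and 1.08 in 5C medium. With 1 library per group, neither difference was tested across cultures.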

How the results depend on the processing

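With a 1.5-fold call, 5 members instead of 1 were higher in 5C-Oct4GFP+ compared with mES-Oct4GFP+ cells, 4 instead of 2 were lower in naive compared with 5C-Oct4GFP+ cells, and 1 instead of 0 was lower in mES-Oct4GFP+ compared with mES-Oct4GFP- and in naive compared with mES-Oct4GFP+ cells. In CPM, 0 instead of 1 was higher in 5C-Oct4GFP- compared with mES-Oct4GFP- cells, because the effective length of Trib3 no longer enters. The other counts of members called stayed within 1.5 times of their value, and no called member changed direction. Of the 56 differences of single members, 56 moved by less than counting error with a pseudocount of 0.1, 53 with FPKM, 50 in CPM and 42 after median-ratio rescaling. That rescaling shifted all genes by 0.155 in mES-Oct4GFP+ compared with mES-Oct4GFP-, 0.226 in 5C-Oct4GFP+ compared with 5C-Oct4GFP-, 0.119 in naive compared with 5C-Oct4GFP+ and 0.168 in naive compared with mES-Oct4GFP+ cells (log2). The sign of uncalled values close to 0 changed under some setting for Chac1 between the sorted mES cells, Atf4 in primed compared with 5C-Oct4GFP+ cells, Ddit3 and Sesn2 in naive compared with mES-Oct4GFP+ cells, and Sesn2 in primed compared with R1 ESCs-primed cells. No paired analysis was possible because each group has 1 library and the labels carry no replicate numbers. The read counts limit Ddit3, Chac1 and Trib3 most, with as few as 45, 22 and 45 reads in a library.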
